A study of Mus musculus with 125 samples.

Results

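The 10 genes described here encode transcription factors that specify and maintain endothelial cells, the cells that line blood vessels, together with close relatives and partners of those factors. They are the ETS family members Erg, Fli1, Ets1, Ets2, Elk3, Etv2 and Etv6, the basic helix-loop-helix factors Tal1 and Lyl1, and the LIM-only protein Lmo2. The genes were taken by symbol, and all 10 were found among the 21887 protein-coding genes of the mouse gene table and among the 27998 genes of the single-cell tables. Each gene was read in 2 ways. The first was the number of ATAC-seq peaks, which mark open chromatin, that overlapped the gene or lay within 50 kb of it. The second was the number of UMIs, each counting 1 captured RNA molecule, in brain endothelial cells.

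The ATAC-seq data are 66 peak lists from mouse tissue, 37 labelled endothelial and 29 labelled input, where input is nuclei of the whole tissue. In adult mice aged 2 months, 12 endothelial and 10 input libraries come from 6 organs (heart, kidney, liver, lung, retina and brain), which at P6 have 14 endothelial and 16 input libraries. Embryos of the E12 group, which the series design places at embryonic day 12.5, have 11 endothelial libraries of brain, heart and trunk and 1 input library of each. The single-cell data are 5 brain libraries of cells enriched with anti-CD31 beads, 3 from embryos (E9.5, E12.5 and E16.5), 1 from P8 pups and 1 from adults. Embryonic brain was dissociated with collagenase, and P8 and adult cortex with another dissociation kit. Per the labels, tamoxifen at 0.015 mg/kg was given before collection of the bulk samples (at E10.5, at P1 and P3, or 7 days before for adults) and vessels were checked for a GFP reporter. The driver of the reporter is not named in the sources used here, and the label of the P6 group stands beside protocol text that collects at P7. The labels name no strain difference or mutation between the groups, but the tamoxifen schedule of the bulk samples and the dissociation of the single cells differed with age and cannot be told apart from it. Nothing in the labels says that replicates came from separate animals, so p-values measure only the spread between these preparations.

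ETS factors share a DNA-binding domain that reads the core letters GGAA, and the enhancers of nearly all endothelial genes carry such cores. Etv2 is active for a short time in the embryo, when mesoderm turns into endothelium and blood, whereas Erg and Fli1 stay on in differentiated endothelium and keep its genes active. Ets1 acts in growing vessels, Ets2 is a close relative of Ets1 with broad expression, Elk3 is a ternary complex factor that can repress its targets, and Etv6 is a repressor needed for blood stem cells and vessel growth. TAL1 and LYL1 bind E-boxes (CANNTG) as dimers with E proteins, and LMO2 bridges them through LDB1 to GATA factors, a complex known from both blood and endothelium.

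Start sites are shown first, because the members differed in whether a peak lay over them at all. RefSeq (GRCm38.p6) gave promoter sequences for 7 of the 10 genes, Erg, Ets2, Elk3, Etv2, Etv6, Tal1 and Lyl1, at 10 annotated starts. Printed are the 250 bases before the starts of 4 genes whose starts set them apart from one another, 5′ to 3′ in the direction of the gene. Capitals mark GGAA and its reverse complement TTCC, the ETS core on either strand. The Erg windows are chr16:95586594-95586843, chr16:95530366-95530615 and chr16:95459349-95459598 on the minus strand. Etv2 is chr7:30635853-30636102 on the minus strand, Tal1 is chr4:115056176-115056425 and chr4:115057561-115057810 on the plus strand, and Lyl1 is chr8:84701207-84701456 on the plus strand.
Erg start 1: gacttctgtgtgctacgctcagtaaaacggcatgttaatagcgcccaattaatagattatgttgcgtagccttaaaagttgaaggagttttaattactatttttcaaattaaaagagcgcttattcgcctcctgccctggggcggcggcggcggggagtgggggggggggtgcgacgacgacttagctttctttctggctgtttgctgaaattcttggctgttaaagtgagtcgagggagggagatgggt
Erg start 2: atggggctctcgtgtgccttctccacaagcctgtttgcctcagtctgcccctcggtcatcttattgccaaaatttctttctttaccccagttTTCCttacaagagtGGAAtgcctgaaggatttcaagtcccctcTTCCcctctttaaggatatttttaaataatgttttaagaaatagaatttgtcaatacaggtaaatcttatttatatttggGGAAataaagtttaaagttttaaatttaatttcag
Erg start 3: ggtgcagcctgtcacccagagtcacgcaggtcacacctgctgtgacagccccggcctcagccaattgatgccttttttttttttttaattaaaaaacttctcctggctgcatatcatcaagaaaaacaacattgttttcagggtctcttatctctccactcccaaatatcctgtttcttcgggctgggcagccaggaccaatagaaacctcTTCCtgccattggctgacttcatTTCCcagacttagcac
Etv2 start 1: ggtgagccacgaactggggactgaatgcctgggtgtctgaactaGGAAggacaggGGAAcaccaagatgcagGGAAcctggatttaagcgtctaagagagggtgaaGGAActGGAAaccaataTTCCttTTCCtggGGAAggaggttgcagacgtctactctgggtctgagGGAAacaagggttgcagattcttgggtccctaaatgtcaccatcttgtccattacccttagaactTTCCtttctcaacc
Tal1 start 1: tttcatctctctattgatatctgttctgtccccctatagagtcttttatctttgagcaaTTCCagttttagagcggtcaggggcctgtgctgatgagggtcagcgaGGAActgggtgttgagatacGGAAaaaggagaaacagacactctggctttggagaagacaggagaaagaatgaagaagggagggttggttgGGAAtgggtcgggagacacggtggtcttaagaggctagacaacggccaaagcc
Tal1 start 2: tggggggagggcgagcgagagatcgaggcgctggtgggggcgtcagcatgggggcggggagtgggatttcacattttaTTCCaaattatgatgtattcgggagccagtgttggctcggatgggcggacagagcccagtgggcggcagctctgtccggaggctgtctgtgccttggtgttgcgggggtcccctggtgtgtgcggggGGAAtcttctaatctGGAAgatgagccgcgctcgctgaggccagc
Lyl1 start 1: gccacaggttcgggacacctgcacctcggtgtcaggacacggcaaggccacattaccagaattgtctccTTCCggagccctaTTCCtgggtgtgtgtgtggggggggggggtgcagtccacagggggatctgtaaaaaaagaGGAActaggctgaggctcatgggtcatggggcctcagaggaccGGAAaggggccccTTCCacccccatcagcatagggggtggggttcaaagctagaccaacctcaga

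In whole peak lists, the third start of Erg, the one farthest inside the gene, had a peak in all 37 endothelial libraries (12 of 12 adult, 14 of 14 P6, 11 of 11 E12). Among inputs it had one in 4 of 10 adult, 12 of 16 P6 and 0 of 3 E12 libraries. The second start of Erg had no peak in any of the 66 libraries, and the first had one in 3 of 16 P6 inputs and in no other library. Of the 3 Erg starts, then, the open one in these endothelial libraries was the third. Its 250 bases hold 2 GGAA cores, those of the second hold 4 and those of the first hold 0.

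The start listed for Etv2, the early embryonic factor, had no peak in any of the 66 libraries, and its 250 bases hold 10 GGAA cores. That start lies inside the span of the gene, whose 5′ end on the minus strand is at chr7:30636509. Regions on either side of the listed start, 1 of them over the 5′ end, were open in most E12 endothelial libraries, as described with the regions. The second start of Tal1 had a peak in 11 of 11 E12 endothelial, 7 of 14 P6 endothelial and 0 of 12 adult endothelial libraries, against 1 of 3, 4 of 16 and 0 of 10 inputs. The first start of Tal1 had one in 10 of 11, 4 of 14 and 3 of 12 endothelial libraries at E12, P6 and adult, and in 3 of 3, 4 of 16 and 0 of 10 inputs. Lyl1 had a peak at its start in 10 of 11, 12 of 14 and 8 of 12 endothelial libraries, and in 3 of 3, 7 of 16 and 3 of 10 inputs. The starts of Ets2 and Etv6 had a peak in every one of the 66 libraries. The start of Elk3 had one in all 25 endothelial libraries of E12 and P6 and in 11 of 12 adult ones, and in 3 of 3, 16 of 16 and 5 of 10 inputs. Lists of E12 and P6 libraries are longer than adult ones (medians of 101233, 69068 and 36756 peaks in endothelial lists), and the part of list length in these age differences was not tested. A GGAA core is common: 93.4% of 32851 mouse promoter windows of this length hold at least 1 on either strand, with a median of 3. The longer ETS motif CCGGAAGT, searched on both strands, was found in 2.88% of those windows and in none of the 10 printed or counted here.

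**Figure D1:**
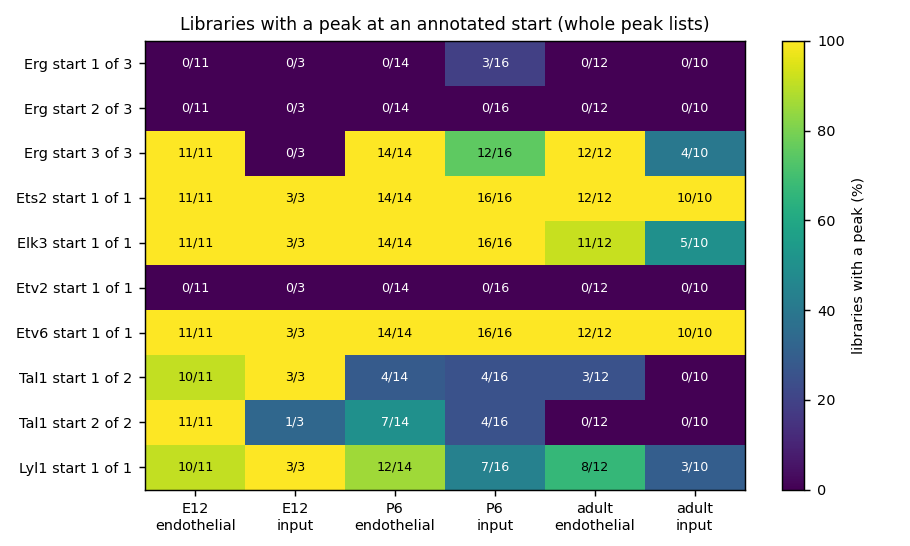
Share of libraries with a peak over each annotated start (250 bases before to 50 after; rows), by age and fraction (columns), with the number of libraries in each cell and the share in percent as colour. The third start of Erg had a peak in all 37 endothelial libraries, and the second start of Tal1 in 11 of 11 E12 but 0 of 12 adult endothelial libraries. The start listed for Etv2, which lies inside the gene and not at its 5′ end, had one in none of 66.

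The lists hold 19464 to 144197 peaks (median 74218) from 10.1 to 59.1 M tags, so the comparisons of gene windows use the same number from each list, its 19000 peaks of lowest q-value. Endothelial libraries were checked by the 6 endothelial markers used for the single cells (Cdh5, Pecam1, Egfl7, Esam, Tie1 and Kdr). On average 5.73, 5.14 and 5.67 of the 6 had a peak within 5 kb in E12, P6 and adult endothelial libraries, against 0.667, 2.00 and 2.50 in inputs. Retina was the weakest organ, with 3.33 of the 6 on average at P6 and 6 and 2 in the 2 adult libraries, and lung inputs held 4 to 6 of the 6. Among markers of other cells, those of megakaryocytes, cells that use Fli1, Erg and Tal1 too, were also more often near a peak in endothelial libraries: on average 2.36, 1.86 and 1.83 of 4, against 1.00, 0.938 and 1.00 in inputs. Microglia and macrophage markers averaged 1.27, 2.14 and 1.33 of 7 in endothelial libraries and 1.00, 1.38 and 1.30 in inputs, and erythroid markers at most 0.182 of 8 in endothelial libraries. In the tests of gene windows described below, 1 of 4 erythroid markers tested, Hba-a2, was higher in endothelial libraries in adults and at P6. At E12, 0 of 7 passed. The part of these other cells in the results below was not tested. Read processing, judged by the input names that the peak caller recorded, came in 4 kinds that nearly follow the organs. Organ and processing cannot be told apart, with exceptions. Kidney and liver share a kind, as do the endothelial libraries of lung and retina, and brain held different kinds. P6 brain endothelial 1 and 2 were of 1 kind. P6 brain endothelial 3, the brain inputs and the other brain endothelial libraries were of another. In brain, processing thus differed in part with fraction at P6 and with age, which the organ term does not take up.

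The windows differ in what else they hold (coordinates in mm10). Erg lies at chr16:95359169-95586600 and Ets2 beside it at chr16:95702407-95721049, with 116 kb between them, and neither window holds another protein-coding gene. Fli1 at chr9:32422204-32543432 and Ets1 at chr9:32636241-32757820 are neighbours 92.8 kb apart, and their windows share 7.19 kb. The window of Fli1 also holds Kcnj1. Elk3 (chr10:93247415-93311159) and Etv6 (chr6:134035700-134270158) each share theirs with 1 gene, Cdk17 and Gm46977. Etv2 (chr7:30633616-30636509) lies among 6 others, Kmt2b, Zbtb32, Upk1a, Cox6b1, Rbm42 and Haus5. Tal1 (chr4:115056426-115071755) has 3 in its window (Stil, Pdzk1ip1 and Cyp4x1), Lyl1 (chr8:84701423-84704716) has 4 (Ier2, Nacc1, Trmt1 and Nfix) and Lmo2 (chr2:103957903-103981878) has 2 (4931422A03Rik and Fbxo3). A peak in a shared window may belong to either gene. In bulk nuclei, more endothelial nuclei in a preparation and more open chromatin per endothelial nucleus cannot be told apart.

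In adult organs, 8 of the 10 genes had more peaks in endothelial than in input libraries, Etv2 had fewer and Ets2 did not pass the test. Across all 16851 genes tested, 8.77% were called higher and 7.27% lower (limma on log2(peaks + 1) with organ as a term, Benjamini-Hochberg adjusted p under 0.05). The same 8 genes were higher at P6, where 16.3% of 17081 genes were called higher and 11.9% lower. At E12, 6 were higher (Erg, Fli1, Ets1, Elk3, Etv6 and Tal1), against 9.2% of 17024 genes higher and 5.81% lower. Differences are on the log2(peaks + 1) scale, which understates the change of windows with few peaks.

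Erg, which keeps endothelial genes active, had from 0 to 11 peaks (median 8) in the 12 adult endothelial libraries and from 0 to 5 (median 0.5) in the 10 inputs. The endothelial libraries were higher in 6 of 6 organs, with no overlap between the fractions in 5 of them. Retina was the exception, with 2 and 0 peaks against 0 and 0. The difference was 1.71 ± 0.30 (SE; limma, adjusted p = 0.00308). At P6 it was 1.48 ± 0.23 (limma, adjusted p = 6.84e-05), with 5.93 ± 3.52 peaks (SD, n = 14) against 1.81 ± 2.1 (SD, n = 16). At E12 the 11 endothelial libraries had 1 to 4 peaks and the 3 inputs 0, 2 and 0, a difference of 1.40 ± 0.36 (limma, adjusted p = 0.0254).

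Fli1, a paralog of Erg that also acts in megakaryocytes, had 2 to 8 peaks (median 6) in adult endothelial libraries and 0 to 3 (median 1) in inputs, with no overlap within any of the 6 organs. Its adult difference was 1.58 ± 0.17 (limma, adjusted p = 6.91e-05). At P6 it was 1.5 ± 0.19 (limma, adjusted p = 8.33e-06), with 1 to 10 peaks against 0 to 4. At E12 the 11 endothelial libraries held 1 to 8 peaks and the inputs 0 in brain, 0 in heart and 4 in trunk, so the fractions overlapped there (1.70 ± 0.49; limma, adjusted p = 0.0378). That E12 call held in 5 of 10 alternatives, and with peaks ranked by fold the difference turned to −0.30 (limma, adjusted p = 0.823). Within 5 kb of the gene alone, adult endothelial libraries had 3.08 ± 2.31 peaks (SD, n = 12) and inputs 0.1 ± 0.316 (SD, n = 10).

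Ets1, the factor of growing vessels, had 2 to 13 peaks (median 9) in adult endothelial libraries and 1 to 7 (median 4.5) in inputs. Its difference was 0.84 ± 0.14 in adults (limma, adjusted p = 0.00244) and 1.09 ± 0.15 at P6 (limma, adjusted p = 1.60e-05). Lung was the exception within the postnatal organs: the 2 P6 lung endothelial libraries had 6 and 5 peaks and the 3 lung inputs 5, 6 and 7. Lung inputs also held most of the endothelial markers (above). At E12 the difference was 0.76 ± 0.20 (limma, adjusted p = 0.0278), with 7 to 10 peaks against 2, 5 and 7.

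Elk3, the ternary complex factor, had 1 to 10 peaks (median 6.5) in adult endothelial libraries and 0 to 4 (median 1) in inputs. In heart the 2 adult endothelial libraries had 10 and 10 and the input 0, and in retina the fractions were equal on average, at 2 and 1 each. The difference was 1.41 ± 0.30 in adults (limma, adjusted p = 0.00673), 1.41 ± 0.24 at P6 (limma, adjusted p = 0.000166) and 1.53 ± 0.28 at E12 (limma, adjusted p = 0.0051). At E12 the endothelial libraries had 2 to 6 peaks and the inputs 1, 1 and 0, with no overlap.

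Etv6 differed less. Its adult endothelial libraries had 2 to 9 peaks (median 5.5) and the inputs 1 to 6 (median 3.5), a difference of 0.50 ± 0.13 (limma, adjusted p = 0.0196). Retina ran the other way, with 2 and 2 peaks against 3 and 2. The difference was 0.71 ± 0.17 at P6 (limma, adjusted p = 0.00299) and 0.78 ± 0.13 at E12 (limma, adjusted p = 0.00266), where 11 endothelial libraries had 5 to 8 and 3 inputs 3, 5 and 3. With whole lists the Etv6 difference turned to −0.21 in adults and −0.11 at E12 and was 0.03 at P6 (limma, adjusted p = 0.539, 0.903 and 0.926).

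Ets2, the broadly expressed relative, had 2.67 ± 1.56 peaks (SD, n = 12) in adult endothelial and 2.60 ± 1.43 (SD, n = 10) in input libraries, and did not pass the test at any age (−0.01 ± 0.19 in adults, 0.12 ± 0.11 at P6, 0.41 ± 0.18 at E12; limma, adjusted p = 0.978, 0.421 and 0.158). Its highest inputs were those of liver, with 5 and 4 peaks in adults and 5 and 5 at P6. Etv2 had 4 or 5 peaks in every adult endothelial library and 5 or 6 in every input, a difference of −0.17 ± 0.05 (limma, adjusted p = 0.0268). That call held in 4 of 9 alternatives, whose adjusted p ran from 0.019 to 0.957. Within 5 kb of Etv2 itself there was no peak among the 19000 in any adult or P6 library, so the peaks of its window all lay farther from it, among its 6 neighbours. At E12 the 4 heart endothelial libraries had 1, 2, 0 and 1 peaks within 5 kb, and the 7 endothelial libraries of brain and trunk had 0, as did the 3 inputs.

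Tal1, a founder of the blood and endothelial lineages, had 0 to 4 peaks (median 3) in adult endothelial libraries and 0 to 3 (median 0.5) in inputs. Liver showed it most plainly, with 4 and 4 peaks in adult endothelial libraries and 0 and 0 in inputs. The difference was 0.95 ± 0.22 in adults (limma, adjusted p = 0.0104), 0.89 ± 0.22 at P6 (limma, adjusted p = 0.00452) and 0.59 ± 0.17 at E12 (limma, adjusted p = 0.044). Close to the gene the embryonic difference was larger: within 5 kb the 11 E12 endothelial libraries had 2 to 4 peaks and the 3 inputs 0, 0 and 0 (log2 difference 1.99; limma, adjusted p = 1.05e-07). Within 5 kb the E12 calls of Erg (0.77), Fli1 (0.90), Ets1 (0.38) and Elk3 (1.07) were lost, in contrast (limma, adjusted p = 0.288, 0.464, 0.137 and 0.0529). Over all 10 alternatives for Tal1 at E12 the adjusted p ran from 1.05e-07 to 0.983.

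Lyl1, the paralog of Tal1, shares its window with 4 genes, and at E12 the wide and the narrow window gave different results. In adults it had 6 to 12 peaks (median 9.5) in endothelial libraries against 4 to 10 (median 6.5) in inputs (0.41 ± 0.12; limma, adjusted p = 0.0276). That adult call held in 4 of 10 alternatives, with adjusted p up to 0.504. At P6 it had 6 to 12 against 1 to 9 (0.77 ± 0.16; limma, adjusted p = 0.000819). At E12 it had 2 to 6 against 5, 4 and 5 (−0.02 ± 0.23; limma, adjusted p = 1). Within 5 kb, however, the 11 E12 endothelial libraries had 1 or 2 peaks each and the 3 inputs 0, a log2 difference of 1.29 (limma, adjusted p = 0.000544). Over all 10 alternatives for Lyl1 at E12 the adjusted p ran from 0.000544 to 1.

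Lmo2, the bridging protein, had 1 to 4 peaks (median 2) in adult endothelial libraries and 0 to 2 (median 1) in inputs. The fractions did not overlap in kidney, with 3 and 4 against 0 and 0, in liver, with 3 and 3 against 0 and 1, or in lung, with 2 and 2 against 0 and 1. The difference was 0.89 ± 0.26 in adults (limma, adjusted p = 0.0286) and 0.88 ± 0.17 at P6 (limma, adjusted p = 0.000489). At E12, with 1 to 3 peaks against 2, 1 and 0, it was 0.76 ± 0.27 and did not pass (limma, adjusted p = 0.0897), but did without heart endothelial 4 (0.82; limma, adjusted p = 0.0498).

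The P6 calls held when any single library was left out, and the adult calls of Erg, Fli1, Ets1, Elk3 and Tal1 did too. The adult call of Lmo2 was lost without any 1 of 7 libraries (kidney endothelial 1 or 2, kidney input 1 or 2, liver endothelial 1 or 2, or liver input 1), with adjusted p up to 0.0545. That of Lyl1 was lost without brain input 1, heart input 1 or kidney endothelial 2, with adjusted p up to 0.0853. Those of Etv6 and Etv2 were lost without heart input 1, at adjusted p = 0.0522 and 0.0694 (limma in all cases). With 1 input per organ, the E12 calls rested on few libraries: without brain input 2 the calls of Erg, Fli1 and Ets1 were lost (differences of 0.97, 1.2 and 0.35). Without trunk input 1 those of Erg, Fli1, Ets1 and Tal1 were lost (1.10, 2.38, 1.03 and 0.26), whereas Elk3 and Etv6 stayed past the threshold without any single library. Fli1 at E12 was also lost without heart input 1, any of the 3 brain endothelial libraries, heart endothelial 1, or trunk endothelial 1 or 3, at differences of 1.54 to 1.73. Ets1 was also lost without heart input 1 (0.91). Tal1 at E12 was lost without each library but brain input 2, with adjusted p of 0.0537 to 0.326. Where whole lists of unequal length were counted, 1 of the 8 adult, 3 of the 8 P6 and 0 of the 6 E12 genes stayed called higher. Of all genes, 109 of 18707, 441 of 19497 and 115 of 19887 were then called higher, and 5043, 5753 and 902 lower.

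The effect did not pass a test of difference between adult and P6 for any of the 10 genes (limma interaction term, adjusted p of 0.525 or more, with 0 of the 10 and 11.7% of all genes at an unadjusted p under 0.05), where 0.053% of 16995 genes were called higher and 0.112% lower.

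**Figure D2:**
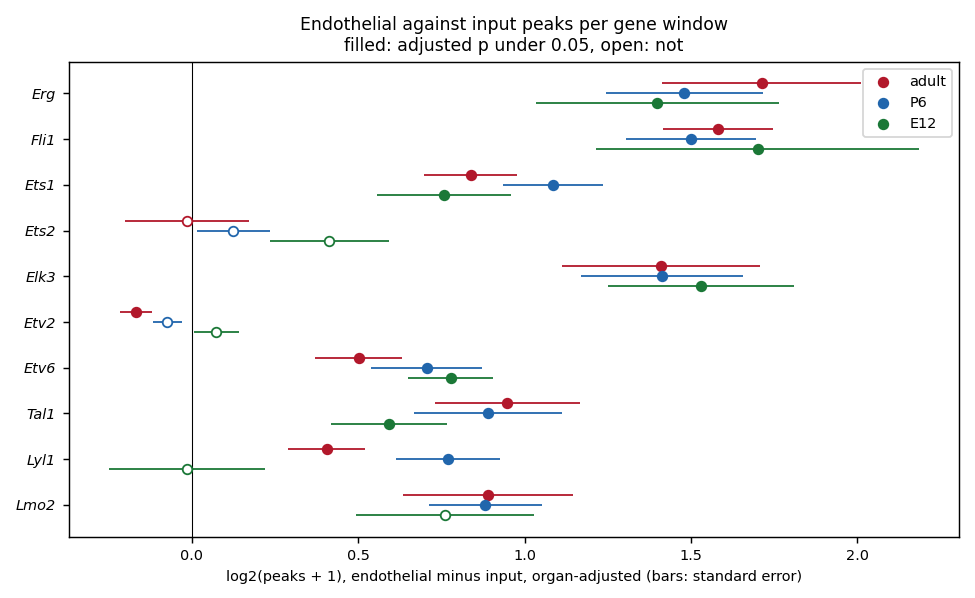
Difference between endothelial and input libraries in log2(peaks + 1) per gene window (x axis) for each gene (y axis) at the 3 ages, with bars of 1 standard error. Filled points passed the test at an adjusted p under 0.05. Erg, Fli1 and Elk3 lie between 1.40 and 1.71 at all ages, and the Ets2 points are all open.

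Other genes of the pathway were read in the same fits. Of 18 further ETS genes tested in adults, 2 were higher in endothelial libraries, Gabpa (0.75 ± 0.14; limma, adjusted p = 0.00377) and Elf2 (0.28 ± 0.09; limma, adjusted p = 0.0487), and 1 was lower, Spi1, the myeloid and B cell factor (−0.30 ± 0.08; limma, adjusted p = 0.0203). Their median difference was −0.04, against 0.86 for the 10 genes and 0.00 for all genes. At P6, 4 of 19 were higher (Gabpa, Etv1, Elf2 and Etv4) and 0 lower, and at E12 0 of 17 passed in either direction. Of all genes, 8.77% were higher and 7.27% lower in adults, 16.3% and 11.9% at P6, and 9.2% and 5.81% at E12. The counts of further ETS genes higher in adults and at P6 are thus near those shares. Of 12 partners of the TAL1-LYL1-LMO2 complex, 4 were higher in adults: Gata2, the GATA factor of endothelium (1.84 ± 0.26; limma, adjusted p = 0.000802), the LIM-binding protein gene Ldb2 (1.59 ± 0.35; limma, adjusted p = 0.00907), the corepressor gene Cbfa2t3 and the E protein gene Tcf4. Lmo1 and Tcf3 were lower. The same 4 were higher at P6 with none lower, and at E12 only Tcf4 and Cbfa2t3 passed, both higher. Of 15 endothelial genes known as ETS targets, 10 were higher in adults, 13 at P6 and 9 at E12, with none lower at any age and medians of 0.67, 0.75 and 0.99. The VEGF receptor gene Flt1 (1.79 ± 0.23, 1.54 ± 0.18 and 1.58 ± 0.11 at adult, P6 and E12) and the angiopoietin receptor gene Tek (1.78 ± 0.29, 1.56 ± 0.19 and 1.42 ± 0.20) were the first or second of that list at every age. After them came Mef2c and Sox18 in adults (1.21 and 1.09), Cldn5 and Sox18 at P6 (1.32 and 1.26), and Hhex and Vwf at E12 (1.28 and 1.22).

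Across the 66 libraries, the 2 genes whose peak numbers followed each member most closely were taken from outside overlapping windows. Spearman's rho is a description, since the libraries share organs, fractions and list lengths. It was 0.861 for Erg with Tek and 0.857 with Xpo1, 0.854 for Fli1 with the VEGF receptor gene Kdr and 0.843 with Gimap7, and 0.837 for Ets1 with both Kdr and Flt1. Elk3 ranked nearest to Prpf6 (0.847) and Sox18 (0.844), and Tal1 to Lrrc8c (0.776) and Adgrf5 (0.758). The nearest genes of the others had rho of 0.780 or less: Rnf166 and Zan for Lyl1, Asap2 and Gm8246 for Etv6, Ifna14 and Tcim for Ets2, N4bp1 and Cdk9 for Lmo2, and Ppl and Pkp2 for Etv2. Among the members themselves the closest pairs were Fli1 with Ets1 (0.847), whose windows overlap, and Fli1 with Elk3 (0.806), on different chromosomes.

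Among the 19000 top peaks, Erg had few in the endothelial libraries of neural tissue. The adult retina libraries had 2 and 0 peaks and the brain libraries 3 and 4, against 8 and 10 in heart, 9 and 7 in kidney, 11 and 9 in liver and 9 and 8 in lung. At P6, retina had 1, 1 and 1 and brain 5, 2 and 4, against 9 and 7 in heart, 8 and 8 in kidney, 11 and 9 in liver and 9 and 8 in lung. By this count both neural tissues lay below all 4 other organs at both ages, with no overlap. The other 4 overlapped one another in adults, and at P6 all but kidney and liver did. In the whole lists, whose lengths differ, the separation was absent: at P6 retina had 21, 17 and 27 peaks and brain 8, 22 and 24, against 15 to 27 in the other organs, and in adults brain had 15 and 13 and retina 10 and 6, against 8 to 19. The test between organs then gave Erg an adjusted p of 0.703 at P6 and 0.127 in adults (limma). Endothelial markers were fewer in retina too, with 3.33 of the 6 near a peak at P6, whereas adult brain had all 6. Of 8 neural markers, retina and brain endothelial libraries had 2 to 4 near a peak on average, and those of the other organs at most 1. The part of other nuclei in the low Erg values was not tested.

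The test of any difference between organs passed for 7 of the 10 genes in adults, where 45.1% of 16534 genes passed (limma moderated F, adjusted p of 0.00317 for Etv6, 0.00801 for Elk3, 0.0149 for Lyl1, 0.0188 for Erg, 0.024 for Tal1, 0.0466 for Etv2 and 0.0468 for Fli1). At P6 it passed for 6, where 45.8% of 16697 genes passed: Erg (limma, adjusted p = 0.000383), Ets1 (0.00376), Elk3 (0.00923), Ets2 (0.00983), Etv6 (0.0193) and Lyl1 (0.0439). At E12 it passed for none of the 10, where 4.36% of 16782 genes passed, and Erg, with 4, 4 and 4 peaks in brain, 1, 2, 3 and 2 in heart and 4, 2, 3 and 3 in trunk, had an adjusted p of 0.165 (limma). At an unadjusted p under 0.05, 2 of the 10 passed at E12, Erg and Etv2, and 18.8% of all genes did. The adult calls of Fli1, Etv2, Tal1 and Lyl1 were lost without some single libraries (9, 10, 6 and 2 of 12), as were the P6 calls of Lyl1 (12 of 14) and Etv6 (2 of 14), so these calls rest on single libraries. Calls were gained for Ets1 in adults without retina endothelial 1 or 2, for Fli1 at P6 without brain endothelial 1 or 2, and for Etv2 at E12 without heart endothelial 3. A permutation test over all genes in place of limma called 5 of the 10 between organs at P6, where 31% of all genes passed it, and 0 in adults, where 0 genes of the whole table passed it. With whole lists none of these 6 P6 and 7 adult calls held. Over 9 alternatives the P6 call held in 8 for Erg, 6 for Ets1 and Etv6, 5 for Elk3, 4 for Ets2 and 3 for Lyl1. The adult call held in 6 of 9 for Erg, Elk3, Etv6 and Lyl1, 4 of 9 for Fli1 and Tal1, and 2 of 8 for Etv2.

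Elk3 had its most adult peaks in heart, with 10 and 10. At P6 heart and kidney were level, with 8 and 7 and with 7 and 8. Its fewest were in retina, with 2 and 1 in adults and 2, 2 and 1 at P6. Etv6 was likewise lowest in adult retina, at 2 and 2, and highest in adult liver, at 8 and 9. Tal1 had 4 and 4 in adult liver and lung, 3 and 3 in kidney, and 1 and 0 in retina, and at P6 it had 6 and 4 in liver, above heart, lung and retina (1 to 3), without passing the test. Fli1 had 8 and 8 in adult heart and in kidney, 4 and 5 in brain and 4 and 2 in retina. Megakaryocyte markers also varied by organ, with 3 of 4 near a peak on average in adult kidney and liver, 2 in heart and 1 in brain, lung and retina. Ets1 had 13 and 12 in adult heart and 10 and 13 in kidney, but 6 and 2 in retina. Lyl1 followed another order, with 6 and 6 in adult liver and 12 and 10 in lung. Lmo2 had its highest values in kidney, 3 and 4 in adults and 4 and 4 at P6, without passing the test between organs at either age.

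**Figure D3:**
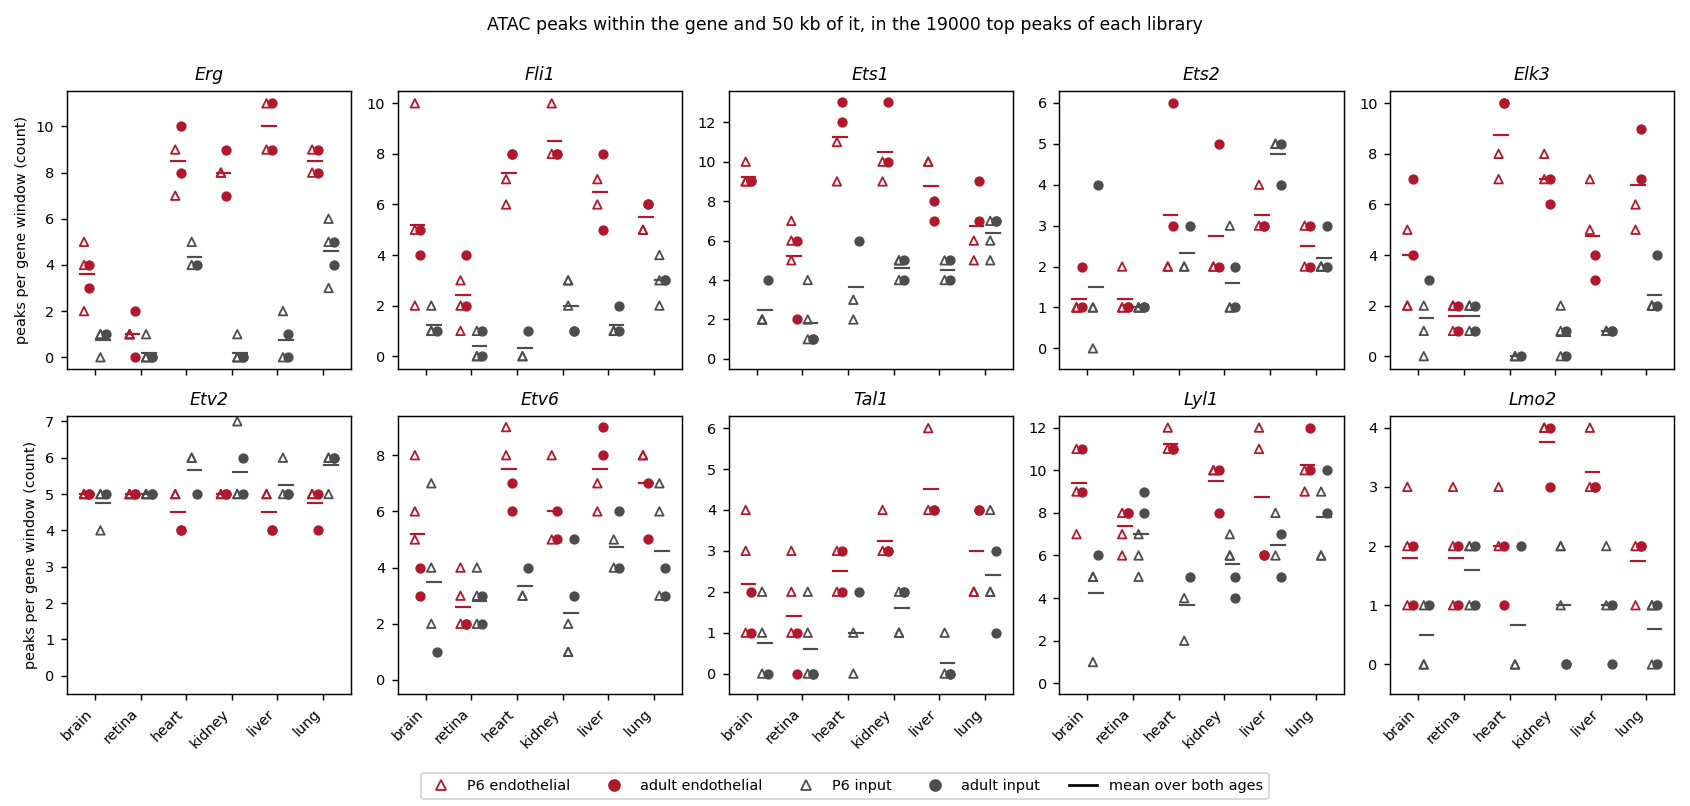
Peaks per gene window (y axis, count among the 19000 top peaks) in each P6 and adult library by organ (x axis), 1 panel per gene, endothelial in red and input in grey, with the mean over both ages as a bar. For Erg, endothelial libraries of brain and retina lie at 0 to 5 peaks and those of the other organs at 7 to 11; in whole lists, not plotted, they overlap.

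Between P6 and adult endothelial libraries, none of the 10 genes passed the test, with limma or by permutation (2, Etv2 and Etv6, had an unadjusted limma p under 0.05, as did 25% of all genes; differences of −0.29 for Etv6 to 0.20 for Ets2, adult minus P6, limma), where 4.76% of 16644 genes were called higher and 3.22% lower in adults. Etv2 passed without adult lung endothelial 1 (−0.12; limma, adjusted p = 0.0395). In whole lists, which are shorter in adults, all 10 were called lower, as were 16121 of all 18739 genes. By bases covered Etv2, Etv6 and Lyl1 were called lower, as were 4442 of 16644 genes (limma). Between E12 and P6, in brain and heart, only Lyl1 passed, where 2.09% of 16878 genes were called higher and 1.9% lower at P6. The E12 libraries had 6, 5 and 4 peaks in brain and 5, 6, 6 and 4 in heart, and the P6 libraries 11, 7 and 9 in brain and 12 and 11 in heart, so the ages did not overlap (0.86 ± 0.14; limma, adjusted p = 0.00984). The call held in 4 of 10 alternatives, whose adjusted p ran from 0.0104 to 1. Within 5 kb of Lyl1 the brain libraries had 2, 2 and 2 peaks at E12 and 3, 0 and 2 at P6, and the heart libraries 1, 2, 1 and 1 and then 2 and 2, so most of the additional peaks lay more than 5 kb from Lyl1, in the window it shares with Ier2, Nacc1, Trmt1 and Nfix. Among the pathway lists, 17 further ETS genes, 12 partners and 15 ETS targets were tested between adult and P6. Elf3 and Spib were higher and Etv4 and Cdh13 lower in adults. Between P6 and E12, with 18, 12 and 15 tested, Elf3 and Tcf12 were higher and Vwf lower at P6. These few calls lie near the shares of all genes given above.

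To see which stretches of the windows were open, the whole lists were merged into 293685 regions with a median width of 418 bp, each covered by peaks of at least 3 lists. A library was counted as having a region where its peaks covered 50% or more of it, and the difference of a region is the share of endothelial minus the share of input libraries, averaged over the 6 organs. The windows of the 10 genes held 486 distinct regions. At P6, 412 of them could be tested, and 24 were found more often in endothelial and 1 less often than in input libraries (permutation of fraction within organ, Benjamini-Hochberg over 242367 regions). That is 5.83% of the members' regions higher, against 1.04% of all regions tested higher and 0.189% lower. The 24 lie in the windows of Ets1 (6), Fli1 (5), Elk3 (4), Erg (3), Etv6 (3), Tal1 (2) and Lmo2 (1), and the windows of Ets2, Etv2 and Lyl1 held none. In adults 0 of 102927 regions were called by this permutation test, which is exact in adults and has a smallest possible p of 8.57e-05. At an unadjusted p under 0.05, 19 of the 200 tested adult regions of the members were higher and 5 lower, against 1.72% and 2.9% of all.

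In Erg, a region at chr16:95458740-95459778 holds the third start and was present in 14 of 14 P6 endothelial and 7 of 16 input libraries (permutation test, adjusted p = 0.0437), and in 11 of 12 against 4 of 10 in adults. Inside the gene, chr16:95448558-95449948 had 12 of 14 against 3 of 16 (permutation test, adjusted p = 0.0187) and chr16:95403377-95404000 had 13 of 14 against 5 of 16 (permutation test, adjusted p = 0.0384). None of these Erg regions was in an E12 input, while 7 to 10 of the 11 E12 endothelial libraries had them.

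The largest differences in Fli1 were a region 25.8 kb past its higher-coordinate end, chr9:32569226-32569760, and 2 within the gene. The outer region was in 11 of 14 P6 and 11 of 11 E12 endothelial libraries, in none of 12 adult ones and in no input (permutation test at P6, adjusted p = 0.0187). Those within the gene, chr9:32525700-32526257 and chr9:32516639-32517332, were in 14 of 14 and 13 of 14 P6 endothelial libraries against 4 of 16 and 3 of 16 inputs (permutation test, adjusted p = 0.0245 and 0.0339).

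Ets1 had its called regions on both sides of its start: chr9:32595040-32595990, 40.3 kb before the gene and between Fli1 and Ets1, was in 11 of 14 P6 endothelial and 1 of 16 input libraries, and in 11 of 11 against 0 of 3 at E12 and 8 of 12 against 1 of 10 in adults (permutation test at P6, adjusted p = 0.0351). At 17.0 kb before the gene, chr9:32618589-32619225 was in 14 of 14 against 5 of 16. Within the gene, chr9:32673914-32674516 was in 8 of 14 against 0 of 16.

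Of the called regions, 1 near Elk3 was present in every endothelial library. At 24.5 kb past the higher-coordinate end of the gene, chr10:93335708-93337036 was in all 37 endothelial libraries, and in 2 of 10 adult, 6 of 16 P6 and 1 of 3 E12 inputs (permutation test at P6, adjusted p = 0.029), with an organ-averaged difference of 0.583. The differences were larger, at 0.722, 0.722 and 0.667, for 3 regions within the gene, chr10:93282489-93283121 (13 of 14 against 4 of 16 at P6), chr10:93301791-93302223 (12 of 14 against 3 of 16) and chr10:93285293-93285912 (11 of 14 against 3 of 16). In adult endothelial libraries these 3 were in 3, 4 and 6 of 12.

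Etv6 held the called region with the largest organ-averaged difference (0.833), chr6:133997835-133998539, 37.2 kb before the gene. At this region 11 of 14 P6 endothelial, 10 of 11 E12 endothelial and 2 of 12 adult endothelial libraries had a peak, and no input did (permutation test at P6, adjusted p = 0.0187). Its others, chr6:134047168-134047757 and chr6:134131502-134132000, were in 11 and 9 of 14 P6 endothelial libraries against 2 and 0 of 16 inputs, and in 0 and 3 of 12 adult endothelial libraries.

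In Tal1, chr4:115075214-115076023, 3.46 kb past the gene's higher-coordinate end, was in 13 of 14 P6 endothelial and 5 of 16 input libraries (permutation test, adjusted p = 0.039), and chr4:115059820-115060154 within the gene was in 9 of 14 against 0 of 16 (permutation test, adjusted p = 0.0422). A region 3.33 kb before Tal1, chr4:115052283-115053092, was in all 37 endothelial libraries but also in 8 of 16 P6 inputs, and did not pass (permutation test, adjusted p = 0.0547). Around Lmo2, chr2:104017463-104018002, 35.6 kb past the gene, was in 13 of 14 against 2 of 16 (permutation test, adjusted p = 0.0274). The single region that was lower, chr2:103927526-103928150, 29.8 kb before Lmo2, was in 0 of 37 endothelial libraries and in 11 of 16 P6, 2 of 10 adult and 1 of 3 E12 inputs (permutation test at P6, adjusted p = 0.0443). These calls depend on the number of libraries: leaving out any 1 of the 30 P6 libraries gave 7 to 23 higher calls in the windows, the fewest without kidney endothelial 1, and 25 of the 30 gave 15 or fewer.

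The windows of Ets2 and Lyl1 each held 1 region present in all 66 libraries: chr16:95701723-95703102, over the start of Ets2, and chr8:84663901-84664420. The latter lies outside Lyl1, before it on the chromosome, in the window shared with Ier2, Nacc1, Trmt1 and Nfix. At Etv2, chr7:30634606-30635236 lies within the gene and chr7:30636392-30636724 over its higher-coordinate end, which is its 5′ end on the minus strand. These regions, on either side of the start listed for Etv2, were each in 10 of 11 E12 endothelial libraries, 1 of 14 P6 endothelial and 0 of 12 adult endothelial libraries. The first was also in 3 of 3 E12 and 3 of 16 P6 inputs, and the second in 0 of 3 and 1 of 16. Absence from adult lists was frequent in general: of all regions in 8 or more of the 11 E12 endothelial lists, 37.1% were in no adult endothelial list. Of the members' own 108 such regions, 26 were in none (24.1%). Adult endothelial lists are also shorter, with a median of 36756 peaks against 101233 at E12 and 69068 at P6. The part of list length in the age differences of regions was not tested.

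**Figure D4:**
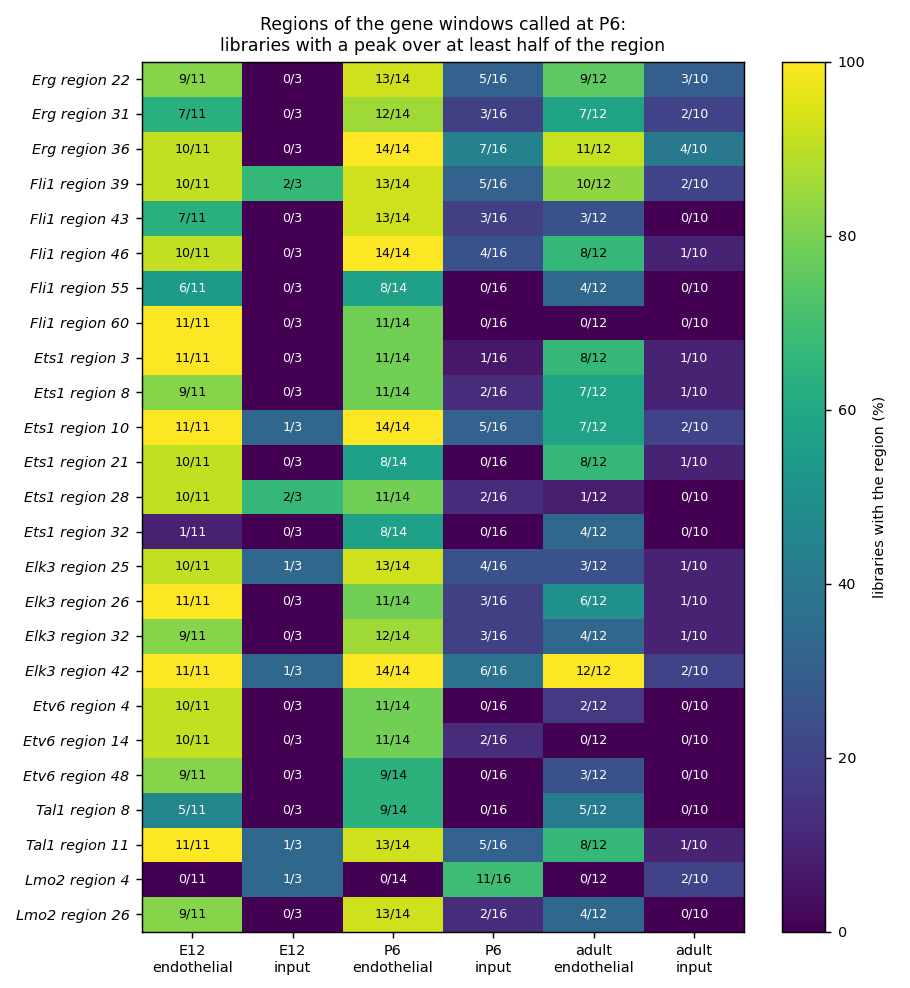
Share of libraries with each region called at P6 (rows, numbered within each gene window along the chromosome) by age and fraction (columns), as a percentage in colour with the number of libraries in each cell. Elk3 region 42 was in all 37 endothelial libraries, and Lmo2 region 4 in none of them and in 11 of 16 P6 inputs.

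RNA of the 10 genes was read in the 5 brain single-cell libraries. Of 42340 barcodes, 23709 were taken as endothelial because they had at least 200 genes, at most 10% of UMIs from mitochondrial genes and UMIs of at least 3 of the 6 marker genes: 5644, 6347 and 3786 in the 3 embryonic libraries in order of age, 4778 at P8 and 3154 in adult. Their median UMIs were 7159, 10469, 9017, 8468 and 4896. Barcodes that passed the same filters with none of the 6 markers served as the background (1118, 554, 51, 130 and 176 barcodes), and their median UMIs were lower, at 1769, 6497, 5186, 1247 and 2464. They can hold other cells, blood cells among them, or endothelial cells with few UMIs. Background thus means a group for comparison here, and not a floor of free RNA. Levels are CPM, the gene's UMIs summed over barcodes and scaled by all UMIs of those barcodes, with exact Poisson 95% intervals that cover counting error only. There is 1 library per age, so differences between ages have no replicate check and no test, and a gene is said to differ between neighbouring ages where its CPM differed at least 2-fold. At most 50 barcodes (35 endothelial) were shared by any pair of libraries, and the sharing was uneven. E12.5 and E16.5 shared 50, E9.5 shared 31 with adult and 29 with P8, P8 and adult shared 8, and each other pair at most 3. A batch behind this pattern would fall between E9.5 and E12.5 and between E16.5 and P8. It could not be told apart from age at those steps and was not tested. Doublets were not removed.

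Etv2 was the member most restricted to 1 age. It had 913 UMIs in endothelial barcodes at E9.5, in 12.2% of them, and 10, 0, 1 and 0 UMIs at the later ages. The level was 20.0 CPM (18.7 to 21.3) at E9.5 and 0.124 CPM (0.0597 to 0.229) at E12.5, 160-fold lower (86.8 to 336). Taken as 3 UMIs of the total, a count of 0 allows up to 0.0706 CPM at E16.5 and 0.129 CPM in adult, and shares of up to 0.0792% and 0.0951% of barcodes with a UMI. The background barcodes of E9.5 also held Etv2, at 10.8 CPM (7.57 to 15.0) in 3.13% of barcodes. After thinning every barcode to 1500 UMIs, the shares at E9.5 were 2.86% of endothelial and 1.28% of background barcodes.

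Erg, in contrast, was higher in each later library, at 44.2 CPM (42.3 to 46.1) at E9.5, then 56.8, 82.0 and 97.5, and 138 (133 to 143) in adult. No interval overlapped that of a neighbouring age, and no single step reached 2-fold. The share of endothelial barcodes with an Erg UMI after thinning followed the same order, at 5.98%, 8.10%, 10.8%, 13.7% and 18.6%, with 0.641% to 2.00% in background barcodes. Without thinning the shares were 26.3%, 45%, 50.3%, 56.3% and 51.8%.

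Fli1 and Elk3 were both higher at E12.5 than at E9.5. Fli1 went from 70.2 CPM to 196 (2.80-fold, 2.69 to 2.91), was highest at 279 CPM at E16.5, and stood at 184 at P8 and 159 in adult. Its background level went from 25.2 CPM at E9.5 to 64.3 at E12.5, and was 51.0 to 71.0 later. Elk3 went from 139 CPM to 290 (2.08-fold, 2.02 to 2.14), its highest level, and then stood at 201, 122 and 163, with background levels of 32.4 and 48.7 CPM at E9.5 and E12.5 and 20.4 to 39.7 later. Ets1 was highest at P8, at 505 CPM, against 178, 231 and 285 in the embryonic libraries in order of age and 323 in adult, and its largest step, from E16.5 to P8, was 1.77-fold. Its background level was also higher at P8 and adult, at 153 and 221 CPM, than in embryos (21.3 to 33.9). Ets2 was lowest in adult, at 47.9 CPM (45.1 to 50.8), within the interval of the background there (48.3, 32.1 to 69.9), and lay between 77.1 and 101 CPM at the other ages, above a background of 20.5 to 29.4. Etv6 lay between 15.0 and 22.5 CPM at all ages. Its levels at P8 (20.4 to 22.8) and adult (20.6 to 24.5) could not be separated, and its background of 5.10 to 36.3 CPM overlapped these levels.

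Lmo2 had the largest fold increase between neighbouring ages among the members. It went from 124 CPM at E9.5 to 497 at E12.5 (4.02-fold, 3.91 to 4.13), reached 607 at E16.5, and was 423 at P8 and 192 in adult, 2.20-fold lower than at P8 (2.13 to 2.27). The shares of thinned endothelial barcodes with an Lmo2 UMI were 16.1%, 47.2%, 57.3%, 46.9% and 27.1%, against 4.58% to 17.2% of background barcodes. Lyl1 was 52.9, 67.1 and 88.4 CPM in the 3 embryonic libraries, 37.5 at P8 (2.36-fold lower than E16.5, 2.24 to 2.49) and 22.3 in adult. Background barcodes held Lyl1 at 32.7, 78.8, 49.7, 17.9 and 38.0 CPM, at or above the endothelial level at E12.5 and adult. Tal1 was at 27.1, 26.5, 21.9, 31.1 and 30.6 CPM. Its levels at E9.5 and E12.5 overlapped in their intervals, as did P8 and adult. Its background was 19.8 CPM (15.3 to 25.2) at E9.5 and 25.1 (20.4 to 30.7) at E12.5, the latter overlapping the endothelial level, and 10.2 and 6.91 CPM at P8 and adult.

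Between E9.5 and E12.5 thus 3 of the 10 genes were 2-fold higher (Fli1, Elk3 and Lmo2) and 1 lower (Etv2), where 23.7% of 14714 genes were higher and 12.7% lower. Between E12.5 and E16.5 none of 9 differed, where 11% of genes were higher and 14.0% lower. Between E16.5 and P8 1 was lower (Lyl1), with 15.2% of genes higher and 10.7% lower. Between P8 and adult 1 was lower (Lmo2), with 17.5% higher and 14.7% lower. Markers of other cells moved with age as well. The summed level of 8 erythroid markers in endothelial barcodes was 3135, 14912, 11123, 16089 and 8377 CPM, with Hbb-y and Hba-x at 0 in adult. That of 4 megakaryocyte markers was 682 CPM at E9.5 and 228, 34.0, 24.7 and 22.8 CPM later. Those of 6 pericyte markers were 5.20, 83.5, 232, 801 and 1437 CPM. From P8 to adult, 4 smooth muscle markers went from 14.9 to 486 CPM and 8 neural markers from 72.0 to 321 CPM. Blood cells use Tal1, Lyl1, Lmo2 and Fli1 too, and the part of these markers' cells or free RNA in the levels was not tested.

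**Figure D5:**
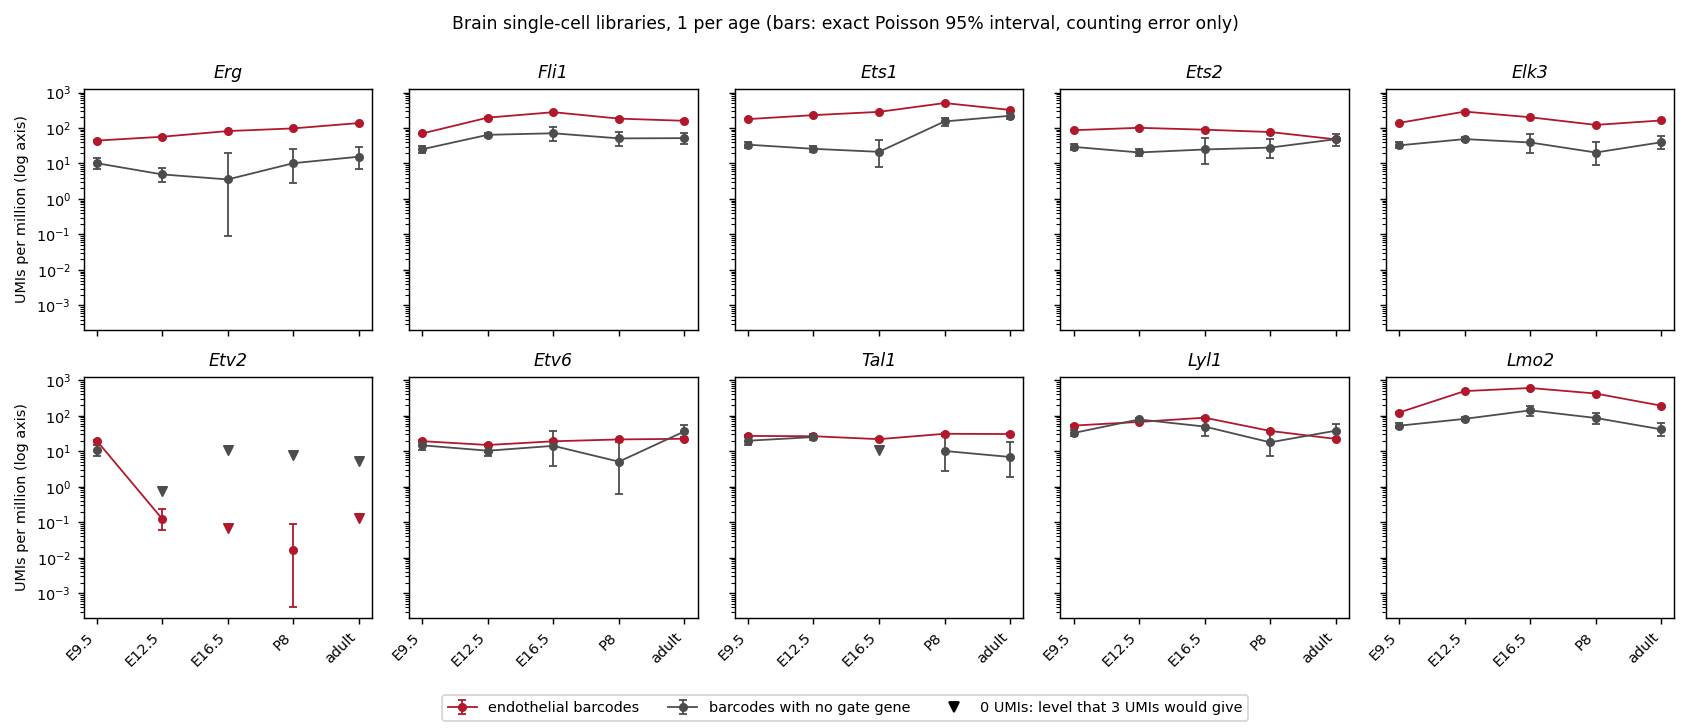
Level in CPM (y axis, log scale) of each gene in endothelial barcodes (red) and in barcodes with none of the 6 markers (grey) of the 5 brain libraries by age (x axis), with exact Poisson 95% intervals and triangles at the level that 3 UMIs would give where none was found. Etv2 was at 20.0 CPM at E9.5 and 0.124 at E12.5, and Erg was highest in adult at 138 CPM.

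The partners of TAL1, LYL1 and LMO2 were read by the same rule, and the shares of all genes at each step are those given above. Between E9.5 and E12.5, 23.7% of all genes were higher and 12.7% lower, so the partner counts at that step are near those of all genes. Between E9.5 and E12.5, 3 of 12 were 2-fold higher, the LIM-binding protein gene Ldb1 (13 to 57.4 CPM, 4.41-fold), the E protein gene Tcf3 (43.0 to 169 CPM, 3.94-fold) and Gata2 (16.2 to 32.6 CPM, 2.02-fold), and 2 were lower, the blood factors Gata1 and Runx1. Between E12.5 and E16.5, Gata3 was 2.32-fold higher, and Gata1 and Runx1 were lower again (6.16-fold and 5.27-fold). From E16.5 to P8, Ldb1 went from 38.1 to 15.9 CPM (2.39-fold lower), Ldb2 from 50.2 to 10.8 (4.66-fold) and Gata3 was 3.08-fold lower, while Lmo1 (5.11-fold) and the corepressor gene Cbfa2t3 (2.19-fold) were higher. In adult against P8, Gata2 was 5.40-fold higher, at 264 CPM, and Lmo1 (3.48-fold), Cbfa2t3 (2.96-fold) and Runx1 (2.39-fold) were higher too. Tcf3 went from 100 to 45.4 CPM at that step (2.21-fold lower), and Gata3 was 30.0-fold lower, with 4 UMIs left.

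Of 13 further ETS genes with enough UMIs, 3 were higher at E12.5 than at E9.5 (Elf1, Elk4 and Erf) and none lower. Of all 14714 genes, 23.7% were higher and 12.7% lower at that step. From E12.5 to E16.5, 4 were lower (Elf4, Etv4, Fev and Spi1), where 11% of all genes were higher and 14.0% lower. Spi1, which macrophages use, was 21.1-fold lower, while the summed microglia and macrophage markers went from 190 to 21.4 CPM. From E16.5 to P8, 4 of 12 were lower (Elf4 4.45-fold, Etv4 2.85-fold, Spi1 2.31-fold and Erf 2.24-fold), where 15.2% of all genes were higher and 10.7% lower. In adult against P8, Spi1 (6.34-fold), Erf (2.60-fold) and Etv1 (2.01-fold) were higher and Etv4, with 4 UMIs left, was lower, where 17.5% of all genes were higher and 14.7% lower. The summed microglia and macrophage markers went from 8.49 to 51.5 CPM at that step, and their part in the level of Spi1 was not tested.

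Of the 15 ETS target genes, 4 were higher at E12.5 than at E9.5 (Robo4 7.28-fold, Dll4 4.26-fold, Cldn5 3.72-fold and Eng 2.09-fold) and none lower, where 23.7% of all genes were higher and 12.7% lower. At E16.5 against E12.5, Cldn5 (3.62-fold), Flt1 (3.01-fold) and Vwf (2.39-fold) were higher and Emcn was 2.18-fold lower. At P8 against E16.5, Sox18 was 3.10-fold higher and Cdh13 3.88-fold lower. In adult against P8, 5 were higher, led by Cdh13 (3.65-fold), Flt1 (2.85-fold), Notch4 (2.79-fold) and Vwf (2.41-fold), and 2 were lower, Hhex (2.95-fold) and Dll4 (2.34-fold). At these later steps 11%, 15.2% and 17.5% of all genes were higher, and 14.0%, 10.7% and 14.7% lower, in order of age.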

How the data were processed

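ATAC-seq peak lists of 66 libraries and UMI tables of 5 brain single-cell libraries were used. The 54 bulk RNA tables were not used here. The authors used MACS2 2.1.2 on each library, per the file headers (no control, broad mode, shift of -100, extension of 200, q-value of 0.05 for strong and 0.1 for broad regions). The deposited lists give the pileup signal of each peak, a ratio (fold) over the local background, and −log10 of the p-value and q-value. Per the submitters' processing notes, the build was mm10 and tools included Bowtie2, SAMtools 1.13, Picard and Cell Ranger. The deposited single-cell matrices hold UMI counts, from Cell Ranger 4.0.0 per the file headers of 3 of them.

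The build was checked by peaks at starts: 30.5% to 51.8% of RefSeq promoters had one, against 1.16% to 6.32% when moved by 100 kb. Among the 19000 peaks of highest −log10 q in each list, those within 50 kb of a gene were counted, and genes with a mean of at least 0.5 were fitted with limma 3.58.1 in R 4.3.3 (trend, pseudocount 1). In simulated data, 3-fold changes were recovered in 89% (adult), 97% (P6) and 58.5% (E12) of genes for endothelial against input, 95% for adult against P6, 74% for P6 against E12, and 6.5%, 39.5% and 55.5% for organs at adult, P6 and E12, on 16572 to 17069 genes. The simulated ratio of variance to mean was 0.144 to 0.215. These shares hold for that setting only: the adult organ test, which recovered 6.5% there, called 45.1% of 16534 genes in the data. Regions used 11664 exact labelings (adult) or 100000 draws (P6), 2-sided. The E16.5 matrix came without a gene table and follows the row order of the others (Spearman's rho with E12.5 of 0.958, and 0.350 when moved by 1 row). Genes enter the single-cell steps with at least 20 UMIs.

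The members and lists were chosen with earlier results of these data known. All 10 members are named. List genes are named where they passed between fractions or ages, at most 4 per list and direction by size. The 2 most alike genes, and up to 3 called regions per gene by size of difference, are named, and regions at Etv2 or present in all endothelial libraries were named after their values were seen. Replicate numbers were not treated as pairs (see the closing section).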

Additional observations from a re-analysis of the deposited data

Results flagged for a closer look

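Among groups of 4 libraries, 5 of 20 combinations of gene and group had a library apart from 3 equal ones, by Dixon's criterion. For continuous values chance meets that criterion in about 1 of 20 groups. With whole numbers this small, 3 values are often equal and a step of 1 peak is enough, so that rate does not apply here. Ets1 had 8 peaks in E12 heart endothelial 2, against 7, 7 and 7. Elk3 had 6 in E12 heart endothelial 3, against 3, 3 and 3, and Tal1 had 4 there, against 3, 3 and 3. That library has the fewest tags and the shortest list of the E12 endothelial group (10.1 M tags and 39096 peaks), and the part of its depth was not tested. Tal1 had 3 in E12 trunk endothelial 1, against 4, 4 and 4, and Lmo2 had 3 in E12 trunk endothelial 3, against 2, 2 and 2.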

How the results depend on the processing

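The numbers of genes called over the whole table (2702 adult, 4823 P6 and 2556 E12 for endothelial against input, 1329 for adult against P6, 673 for P6 against E12, and 7452, 7642 and 731 between organs) moved by over 1.5 times in these cases; the cause was not tested. With whole lists they were 5152 (adult), 1017 (E12), 16142 (adult against P6), 348 (P6 against E12), 1983 (organs P6) and 37 (organs E12), and the balance turned: 109 higher and 5043 lower in adults, 441 and 5753 at P6, 115 and 902 at E12, 21 and 16121 for adult against P6, and 1 and 347 for P6 against E12. With 10000 peaks they were 579, 2346, 1027, 714, 421, 3833 (organs adult) and 269 (organs E12). Ranked by fold they were 3000 (P6), 927 (E12), 3713 (adult against P6), 4956, 4768 and 444 (organs). Within 5 kb they were 925, 2129, 983, 394, 297, 3146, 3475 and 319. By bases covered they were 1735 (adult), 1480 (E12) and 4674 (adult against P6, 232 higher and 4442 lower), and P6 against E12 turned to 69 higher and 632 lower, from 352 and 321, P6 to 2077 higher and 2830 lower, from 2786 and 2037, and in adults 906 of the 1735 were lower, from 1225 of 2702. With each organ split by kind of read processing, P6 against E12 gave 414. The permutation test over all genes gave 1237 (adult), 0 (E12, smallest p 0.01), 530 (adult against P6), 0 (P6 against E12) and 0 (organs adult and E12). P6 regions with any overlap were 6589 in place of 2975. A 1.5-fold rule in single cells gave 8462, 6101, 6806 and 7162 genes.

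Replicate numbers were not treated as pairs: 20 pairs of endothelial and input libraries had correlations of −0.17 to 0.12 and 12 pairs of adult and P6 libraries −0.08 to 0.03. In groups of 2 replicates both pairs get the same value, so these correlations cannot exclude preparations shared by replicate number. The replicate block gave 488, 2340, 459, 279 and 305 genes, and 0 P6 regions, 0 of them the members'. For regions the block keeps only libraries paired by number, which leaves out P6 liver. It then has few labelings and a larger smallest possible p. Over 224404 regions hardly any can pass, so the 0 decides nothing about them.

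Of the 8 members higher in adults, 1 stayed called with whole lists, 2 of 7 with 10000 peaks, 5 by fold, 7 of 7 within 5 kb, 7 by bases, 3 with the block and 6 by permutation. Of the 8 at P6 these were 3, 6 of 7, 5, 7 of 7, 8, 7 and 8, and of the 6 at E12, 0, 4, 0, 2, 3, 0 and 0. Differences changed sign with whole lists for Etv6 in adults (−0.21) and at E12 (−0.11), and for Lyl1 (−0.0027) and Lmo2 (−0.057) at P6 and Lyl1 between P6 and E12 (−0.0027). Ranked by fold they did so for Ets2 in adults (0.19) and, at E12, Fli1 (−0.30), Ets2 (−0.17), Etv2 (−0.017) and Tal1 (−0.035), and for Etv2 at P6 (0.066). Ets2 at P6 was −0.23 with 10000 peaks, Etv2 at E12 −0.16 by bases, and Lyl1 at E12 1.29 within 5 kb and 0.16 with the block. The call of Lyl1 between P6 and E12 was lost in 6 of 10 alternatives (whole lists, by fold, 5 kb, bases, block and permutation). In that permutation test Lyl1 had the smallest possible p (0.00333) and 0 of 16878 genes passed, so that loss is not particular to Lyl1.

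Leaving out 1 library gave 1660 to 2959 (adult, lowest without heart input 1), 4330 to 4945 (P6), 891 to 2755 (E12, lowest without trunk input 1, then 1061 without brain input 2), 916 to 1464 (adult against P6), 279 to 908 (P6 against E12, at most 427 without any of the endothelial libraries E12 brain 1 to 3, E12 heart 1 or 2, P6 brain 1 and P6 heart 1 or 2), and 5184 to 6894, 5658 to 7971 and 588 to 1385 (organs, the last highest without E12 heart endothelial 3) genes, 919 to 3068 P6 regions and 7 to 23 of the members'. Ets2 in adults ran from −0.14 to 0.13 and Lyl1 at E12 from −0.18 to 0.15. The 6 single-cell differences of 2-fold held in 7 of 7 alternatives.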
